A study of Mus musculus with 4 samples.

Results

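Potassium channels other than the classical voltage-gated pore subunits set the resting potential of neurons and glia, and the genes described here encode these channels together with the auxiliary subunits of potassium channels. Inward rectifiers (Kir) pass potassium into the cell more easily than out of it and include the Kir3 channels (GIRK) opened by G protein βγ subunits, the ATP-sensitive channels and the glial channels that clear potassium. Tandem-pore-domain channels (K2P) carry background leak currents, while calcium- and sodium-activated channels (BK, SK, IK and Slack) open when those ions enter the cell. The auxiliary genes encode KChIP proteins, which bind Kv4 channels, Kvβ proteins, which bind Kv1 channels, and the single-span Kcne proteins. In the olfactory bulb most neurons are GABAergic granule and periglomerular cells, and leak and inward rectifier currents help to set how readily such cells fire.

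The genes were taken by symbol as all Kcnj, Kcnk, Kcnm, Kcnn, Kcnt, Kcnu, Kcne, Kcnip and Kcnab entries, which gave 51 of the 20032 genes in the deposited table. Total RNA from olfactory bulbs at postnatal day 11 was sequenced from 2 DCKO samples and 2 control samples, with C57BL/6J, 129S6 and CD1 all contributing to the mixed background of both groups. DCKO mice carried Sp8 Flox/Flox and Sp9 Flox/Flox alleles with Dlx5/6-CIE, which expresses Cre in the GABAergic lineage, so that both Sp zinc finger transcription factors are removed there. Controls were littermates with no Cre, and their floxed alleles are not given in the labels. The labels do not say whether the samples of a genotype came from separate animals or pools, so the p-values measure only the spread between these samples.

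Levels are in FPKM, which scales fragments by transcript length and library size, as deposited. Changes are log2 differences, DCKO minus control, on the log2(FPKM + 1) scale, where the change of a gene with low values comes out too small. A gene was tested where its mean over the 4 libraries reached 1 FPKM, and was called at a limma adjusted p below 0.05, adjusted with the Benjamini-Hochberg method over all 13434 tested genes. With 2 samples against 2, an exact permutation test of a single gene cannot go below p = 0.333.

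The deposited scaled fragment counts summed to between 14632502 and 15400982 per library. Sp8 stood at 1.68 and 2.03 FPKM in DCKO, against 31.96 and 26.7 FPKM in controls, and Sp9 at 0.0674 and 0.236 FPKM in DCKO, against 24.0 and 30.7 FPKM in controls. All 10 listed markers of bulb interneurons were lower in DCKO, all 8 measured markers of mitral and tufted cells were higher, and of 10 astrocyte markers 7 were higher and 3 were not called. None of 7 oligodendrocyte, 5 oligodendrocyte precursor, 5 olfactory sensory neuron and 2 choroid plexus markers tested were called, while 5 of 7 microglial, 3 of 7 endothelial and 1 of 7 mural markers were higher. Markers of olfactory sensory neurons, whose axons enter the bulb, set control replicate 1 apart. Their summed level was 63.6 and 50.1 FPKM in DCKO, against 195.6 FPKM in control replicate 1 and 49.1 FPKM in control replicate 2. In whole-bulb RNA, fewer cells of a type and less RNA per cell cannot be told apart.

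Of the 51 genes, 35 passed the filter, and 22 of these were called, 14 lower and 8 higher in DCKO. Of all tested genes in the table, 27.3% were called, 14.3% lower and 13.0% higher. The channel genes were called in 62.9% of cases, 40.0% lower and 22.9% higher. Their median log2 change was -0.00, close to the median of -0.02 over all tested genes, with decreases and increases on both sides. The decreases were the larger changes, reaching -1.92 for Kcnk13, while the largest increase was 1.06 for Kcnip4. The 2 DCKO and the 2 control values did not overlap for 28 of the 35 tested channel genes, against 71.5% of all tested genes. Among all called genes 52.4% were lower in DCKO, and 41.5% were lower when the libraries were centred on their medians. That centring left 14 channel genes lower and made 9 higher.

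**Figure D1:**
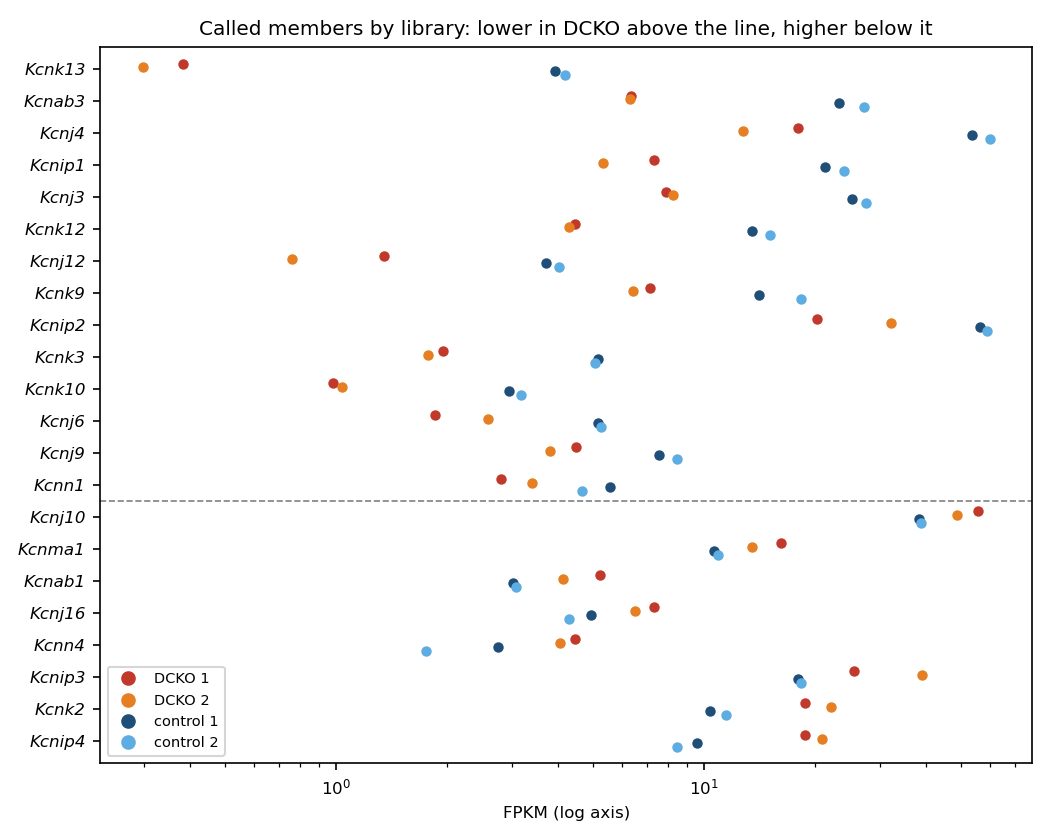
FPKM of the 22 called channel genes in each of the 4 libraries, on a log axis, with 1 row per gene and 1 point per library. The 14 genes above the dashed line were lower in both DCKO libraries than in both controls and the 8 below it were higher, with the widest gap for Kcnk13 at 0.384 and 0.298 FPKM in DCKO, against 3.94 and 4.19 FPKM in controls.

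The summed level of the 51 genes was 413.3 and 416.04 FPKM in DCKO, against 500.5 and 520.8 FPKM in controls. The most abundant transcripts differed between the genotypes. In DCKO the highest means were those of Kcnj10 (52.0 FPKM), Kcnab2 (39.6 FPKM), Kcnip3 (32.3 FPKM), Kcnmb4 (29.4 FPKM) and Kcnip2 (26.2 FPKM). Below Kcnj10 each gene overlapped its neighbour in this order, since Kcnip3 spanned 25.6 to 39.1 FPKM and Kcnip2 20.2 to 32.2 FPKM, and in DCKO replicate 1 Kcnt1 (26.6 FPKM) stood above both. In controls they were those of Kcnip2 (57.4 FPKM), Kcnj4 (56.5 FPKM), Kcnab2 (39.3 FPKM) and Kcnj10 (38.6 FPKM). Within the controls the first 2 did not separate, since Kcnip2 spanned 56.05 to 58.8 FPKM and Kcnj4 53.3 to 59.7 FPKM. Kcnab2 (38.82 to 39.8 FPKM) and Kcnj10 (38.5 to 38.81 FPKM), next in the controls, were close but did not overlap.

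The 3 tested G protein-gated inward rectifiers all fell, while 14.3% of all tested genes were lower. Kir3 channels are tetramers that slow firing when GABA-B, opioid and other receptors release βγ subunits. Kcnj3, which encodes Kir3.1 (GIRK1; chromosome 2, 55435970 to 55598145, + strand, GRCm38), was at 7.88 and 8.21 FPKM in DCKO, against 25.3 and 27.6 FPKM in controls. Both DCKO libraries lay well below both controls, and the DCKO mean was 3.28-fold lower (log2 change -1.60, SE 0.08, limma adjusted p = 0.00112). An annotated antisense long noncoding gene, Gm26794, covers 31.1% of the exon bases of Kcnj3. Since the strand setting is not given in the sources used here, reads of the 2 genes cannot be told apart where they overlap. Kcnj6, which encodes Kir3.2 (GIRK2), was at 1.86 and 2.58 FPKM in DCKO, against 5.15 and 5.25 FPKM in controls (log2 change -0.95, SE 0.14, adjusted p = 0.0125). Kcnj9, which encodes Kir3.3 (GIRK3), was at 4.496 and 3.83 FPKM in DCKO, against 7.57 and 8.47 FPKM in controls (log2 change -0.81, SE 0.11, adjusted p = 0.0104). The groups did not overlap for either gene. Kcnj5, which encodes Kir3.4 and is best known from the heart, stayed below the filter at 0.477 to 0.611 FPKM in DCKO and 0.127 to 0.900 FPKM in controls, the higher control being replicate 1. The summed level of the 4 genes was 14.8 and 15.1 FPKM in DCKO, against 38.9 and 41.4 FPKM in controls. Kcnj3 made up 53.1% and 54.4% of that sum in DCKO, against 65.0% and 66.6% in controls, and Kcnj9 made up 30.3% and 25.3% in DCKO, against 19.5% and 20.4% in controls.

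Kir3 channels act with receptors and regulators of G proteins. Of 12 tested genes in a list of GABA-B receptor subunits, G protein β subunits, RGS proteins and their partners, 3 fell, 1 rose and 8 were not called, a called share of 33.3%, against 27.3% of all tested genes. Gabbr2, the receptor subunit that couples to the G protein, was at 7.17 and 7.39 FPKM in DCKO, against 14.2 and 13.8 FPKM in controls (log2 change -0.86). Gnb5, the atypical β subunit that pairs with RGS proteins, changed by -0.59, and Kctd12, an auxiliary subunit of GABA-B receptors, rose by 0.47. Gabbr1, the ligand-binding receptor subunit, was the other gene that fell (-0.36). The limma adjusted p-values of the 4 lay between 0.00343 and 0.0333.

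Of the strong rectifiers of the Kir2 family, 2 of 3 tested genes fell, while 14.3% of all tested genes were lower. Kcnj4, which encodes Kir2.3, was at 17.999 and 12.8 FPKM in DCKO, against 53.3 and 59.7 FPKM in controls. On the log2(FPKM + 1) scale this was the largest decrease among the tested Kir genes (log2 change -1.83, SE 0.17, 95% confidence interval -2.26 to -1.39, limma adjusted p = 0.0042). Kcnj12, which encodes Kir2.2, was at 1.35 and 0.761 FPKM in DCKO, against 3.72 and 4.04 FPKM in controls (log2 change -1.26, SE 0.18, adjusted p = 0.0110). The DCKO mean was 3.68-fold lower for Kcnj4 and also 3.68-fold lower for Kcnj12, whose low values make its log2 change smaller. On the scaled counts both genes changed by -1.89. Kcnj2, which encodes Kir2.1, was at 2.68 and 3.26 FPKM in DCKO, against 3.82 and 3.35 FPKM in controls, and was not called (log2 change -0.21, 95% confidence interval -0.54 to 0.12, adjusted p = 0.259). The summed level of the 4 Kir2 genes, with the low Kcnj14, was 22.2 and 16.9 FPKM in DCKO, against 61.5 and 67.4 FPKM in controls. Kcnj4 supplied 75.6% to 88.6% of it in every library.

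The inward rectifiers of glia were higher in DCKO. Kcnj10 encodes Kir4.1, the channel through which astrocytes take up potassium, and Kcnj16 encodes Kir5.1, which joins Kir4.1 in mixed channels. Kcnj10 was at 55.4 and 48.6 FPKM in DCKO, against 38.5 and 38.8 FPKM in controls, a 1.35-fold higher mean (log2 change 0.42, SE 0.08, limma adjusted p = 0.0263). Kcnj16 was at 7.33 and 6.49 FPKM in DCKO, against 4.93 and 4.31 FPKM in controls (log2 change 0.49, SE 0.11, adjusted p = 0.0305). The groups did not overlap for either gene, and the ratio of Kcnj10 to Kcnj16 was 7.56 and 7.49 in DCKO, against 7.81 and 9.01 in controls. Neither call held in fits with 1 control left out. The adjusted p was 0.0819 for Kcnj10 without control replicate 1 and 0.0846 without control replicate 2. For Kcnj16 it was 0.0587 and 0.142 without those libraries and 0.0891 without DCKO replicate 1. Of 10 astrocyte markers 7 were also higher, while Slc1a2, S100b and Aldoc were not called. The summed level of the 10 was 1348 and 1172 FPKM in DCKO, against 735.3 and 742.3 FPKM in controls. Gfap alone was at 316.7 and 246.3 FPKM in DCKO, against 77.4 and 71.8 FPKM in controls. The part of astrocytes in the result was not tested.

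Kcnj13 encodes Kir7.1, best known from transporting epithelia such as the choroid plexus, and was at 2.39 and 2.90 FPKM in DCKO, against 1.78 and 0.776 FPKM in controls. It was not called (log2 change 0.71, 95% confidence interval 0.07 to 1.35, limma adjusted p = 0.0906). It passed without control replicate 1 (log2 change 1.03, limma adjusted p = 0.0157), and the change was 0.39 without control replicate 2 (adjusted p = 0.224). Gigyf2, a gene on the opposite strand, covers 49.1% of its exon bases. Scaled counts of Kcnj13 were low, at 48.8 and 59.0 in DCKO, against 37.3 and 16.4 in controls. Choroid plexus markers were low, with a summed level of 4.89 and 3.63 FPKM in DCKO, against 6.85 and 2.27 FPKM in controls. Kcnj11 and Kcnj8, the pores of ATP-sensitive channels (Kir6.2 and Kir6.1), did not pass. Kcnj11 was at 8.82 and 7.44 FPKM in DCKO, against 8.17 and 7.71 FPKM in controls (log2 change 0.03, 95% confidence interval -0.24 to 0.29). Kcnj8, which marks pericytes in brain, was at 2.48 and 3.04 FPKM in DCKO, against 3.06 and 3.22 FPKM in controls (log2 change -0.14, 95% confidence interval -0.46 to 0.17). Their sulfonylurea receptor partners Abcc8 (log2 change 0.13) and Abcc9 (-0.06) were not called either.

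Kcnj9 and Kcnj10 are neighbours on chromosome 1, transcribed away from each other with 11891 bases between the annotated genes, and were called in opposite directions. Expressed as a ratio within each library, Kcnj10 stood at 12.3 and 12.7 times Kcnj9 in DCKO, against 5.08 and 4.58 times in controls. The 250 bases before the RefSeq start of each (GRCm38.p6) are shown for comparison, beside those of Kcnj4 and Kcnk13. On the log2(FPKM + 1) scale, Kcnj4 and Kcnk13 had the largest decreases among the tested Kir and K2P genes. Capitals mark GGGCGG on either strand (CCGCCC on the other), the GC box to which Sp factors are known to bind, and each run is written 5′ to 3′ on the strand of its gene.
Kcnj9 (chr1:172329323-172329572, - strand): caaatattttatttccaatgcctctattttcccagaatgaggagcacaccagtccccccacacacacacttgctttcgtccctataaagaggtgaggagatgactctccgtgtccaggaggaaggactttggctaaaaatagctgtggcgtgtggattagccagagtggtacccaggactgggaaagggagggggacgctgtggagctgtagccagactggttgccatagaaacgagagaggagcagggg
Kcnj10 (chr1:172340960-172341209, + strand): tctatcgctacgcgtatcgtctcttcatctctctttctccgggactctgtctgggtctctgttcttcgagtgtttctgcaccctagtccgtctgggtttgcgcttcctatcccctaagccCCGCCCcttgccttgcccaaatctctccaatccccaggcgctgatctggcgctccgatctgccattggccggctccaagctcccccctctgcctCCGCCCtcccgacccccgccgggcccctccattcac
Kcnj4 (chr15:79505242-79505491, - strand): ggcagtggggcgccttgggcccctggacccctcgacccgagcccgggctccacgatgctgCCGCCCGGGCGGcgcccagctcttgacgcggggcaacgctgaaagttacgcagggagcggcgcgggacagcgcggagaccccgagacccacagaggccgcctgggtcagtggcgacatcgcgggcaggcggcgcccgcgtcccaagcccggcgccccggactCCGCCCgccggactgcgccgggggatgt
Kcnk13 (chr12:99964249-99964498, + strand): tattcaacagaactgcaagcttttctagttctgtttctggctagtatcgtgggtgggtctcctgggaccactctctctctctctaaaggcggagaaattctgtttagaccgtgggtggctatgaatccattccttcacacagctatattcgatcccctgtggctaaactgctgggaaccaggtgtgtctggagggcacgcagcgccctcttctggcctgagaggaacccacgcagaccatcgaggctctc
The window of Kcnj4 holds 3 matches, 2 of them adjoining on opposite strands, and is 77.2% G and C. Kcnj10 has 2 matches at 62.0% G and C, and the windows of Kcnj9 and Kcnk13 have 0 matches at 52.0% and 52.8%. The letters were found in windows of 7 of 11 matched genes that fell (63.6%), 7 of 8 that rose (87.5%) and 6 of 10 that were not called (60.0%). Among tested genes with a RefSeq window, 64.9% hold the letters in at least 1 window, as do 35.4% of all genes in the sequence table. Counted by window, since some genes have several starts, the shares were 43.8% of 16 windows for genes that fell and 36.8% of 19 for genes that rose, against 57.5% of windows of tested genes. These matches describe the sequence and not binding.

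**Figure D2:**
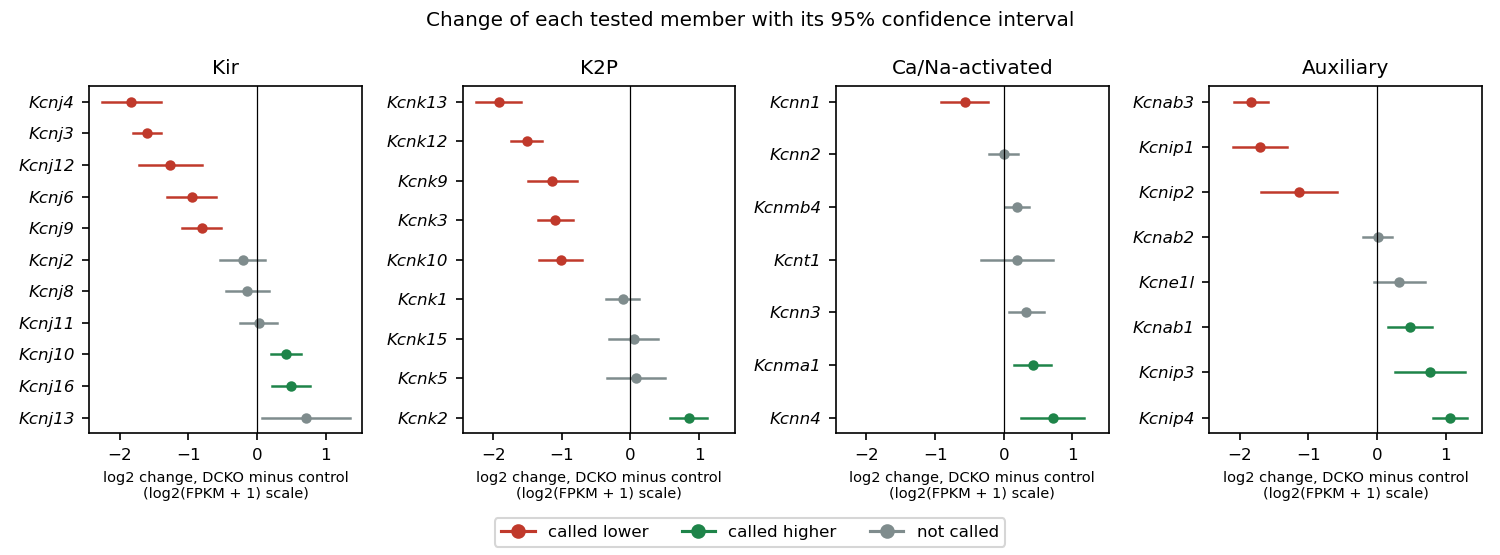
Log2 change (DCKO minus control, on the log2(FPKM + 1) scale) of the 35 tested channel genes with 95% confidence intervals, grouped as inward rectifiers, tandem-pore channels, calcium- or sodium-activated channels and auxiliary subunits. Decreases fill the upper part of the Kir and K2P panels, down to -1.83 for Kcnj4 and -1.92 for Kcnk13, while the auxiliary panel runs from -1.84 for Kcnab3 to 1.06 for Kcnip4.

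Among the leak channels, both THIK genes and 2 of 3 TASK genes fell, and the TREK group split. Of 9 tested K2P genes, 5 fell, 1 rose and 3 were not called, a called share of 66.7%, against 27.3% of all tested genes. Kcnk13, which encodes THIK-1 and is known in brain mainly as a channel of microglia, was at 0.384 and 0.298 FPKM in DCKO, against 3.94 and 4.19 FPKM in controls. This was the largest decrease of any channel gene here, with a mean 11.9-fold lower (log2 change -1.92, SE 0.13, limma adjusted p = 0.00203). The log2 change was -3.24 with a pseudocount of 0.1 in place of 1 and -3.47 on the scaled counts. Those counts were 17.6 and 13.6 in DCKO, against 177.4 and 187.1 in controls. Of 7 listed microglial markers, 5 were higher in DCKO and P2ry12 and Tmem119 were not called. The summed level of the 7 was 148.3 and 158.5 FPKM in DCKO, against 105.4 and 105.9 FPKM in controls. The part of microglia in the Kcnk13 result was not tested. Kcnk12, which encodes the related THIK-2, was at 4.45 and 4.31 FPKM in DCKO, against 13.5 and 15.1 FPKM in controls (log2 change -1.51, SE 0.09, adjusted p = 0.00153). Kcnk12 too rests on few fragments, with scaled counts of 38.1 and 39.0 in DCKO, against 117.0 and 121.5 in controls. The ratio of Kcnk12 to Kcnk13 was 11.6 and 14.4 in DCKO, against 3.44 and 3.61 in controls.

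Kcnk9 and Kcnk3 encode TASK-3 and TASK-1, leak channels closed by acid. Kcnk9 was at 7.15 and 6.41 FPKM in DCKO, against 14.1 and 18.3 FPKM in controls (log2 change -1.14, SE 0.14, limma adjusted p = 0.00814). Kcnk3 was at 1.95 and 1.77 FPKM in DCKO, against 5.16 and 5.04 FPKM in controls (log2 change -1.09, SE 0.10, adjusted p = 0.00427). No DCKO value reached the lower control value in either gene. Kcnk15, which encodes TASK-5, a relative for which no current of its own has been found, was at 12.9 and 15.3 FPKM in DCKO, against 15.1 and 12.1 FPKM in controls. Its groups overlapped, and its log2 change was 0.05 (95% confidence interval -0.30 to 0.40). Kcnk15 rests on few fragments for its level, with scaled counts of 70.3 and 85.3 in DCKO, against 81.7 and 62.7 in controls. It made up 58.6% and 65.2% of the summed FPKM of the 3 TASK genes in DCKO, against 44.0% and 34.2% in controls.

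Kcnk2 and Kcnk10 encode TREK-1 and TREK-2, related channels opened by stretch and lipids, and were called in opposite directions. Kcnk2 was at 18.8 and 22.2 FPKM in DCKO, against 10.4 and 11.4 FPKM in controls, a 1.88-fold higher mean (log2 change 0.85, SE 0.11, limma adjusted p = 0.0085). An antisense gene, A430027H14Rik, covers 12.2% of its exon bases. Kcnk10 was at 0.981 and 1.04 FPKM in DCKO, against 2.95 and 3.18 FPKM in controls (log2 change -1.02, SE 0.12, adjusted p = 0.00757). Within each library Kcnk2 was 19.2 and 21.4 times as high as Kcnk10 in DCKO, against 3.53 and 3.596 times in controls. Kcnk1, which encodes TWIK-1, was at 12.3 and 10.8 FPKM in DCKO, against 12.04 and 13.0 FPKM in controls, and was not called (log2 change -0.11, 95% confidence interval -0.35 to 0.13). Kcnk5, the TASK-2 gene, was just above the filter and was not called (log2 change 0.08, 95% confidence interval -0.34 to 0.50).

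Of 7 tested genes for calcium- and sodium-activated channels, 1 fell, 2 rose and 4 were not called, with log2 changes between -0.57 and 0.71. The called share was 42.9%, against 27.3% of all tested genes. Kcnma1, the pore of the large-conductance BK channel, was at 16.2 and 13.5 FPKM in DCKO, against 10.6 and 10.9 FPKM in controls (log2 change 0.42, SE 0.10, limma adjusted p = 0.0411). Without control replicate 1 it was not called (adjusted p = 0.125), nor without control replicate 2 (0.110) or DCKO replicate 1 (0.0702). Kcnmb4, which encodes the β4 subunit of neuronal BK channels, was at 29.9 and 28.8 FPKM in DCKO, against 26.3 and 25.02 FPKM in controls. It was not called (log2 change 0.19, 95% confidence interval 0.01 to 0.36, adjusted p = 0.0985). Annotated antisense genes cover parts of its exons. Kcnmb4 was 1.85 and 2.14 times as abundant as Kcnma1 in DCKO, against 2.48 and 2.29 times in controls. Among the leucine-rich γ subunits of BK, Lrrc26 fell, at 1.37 and 1.59 FPKM in DCKO, against 3.29 and 4.22 FPKM in controls (log2 change -0.93, limma adjusted p = 0.0140), and Lrrc55 (log2 change 0.33, adjusted p = 0.205) was not called.

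The small-conductance SK channels and the related IK channel are opened by calcium bound to calmodulin on the channel itself. Kcnn1 (SK1) was at 2.80 and 3.41 FPKM in DCKO, against 5.57 and 4.65 FPKM in controls (log2 change -0.57, SE 0.13, limma adjusted p = 0.0354). Without control replicate 1 Kcnn1 was not called (adjusted p = 0.134), nor without control replicate 2 (0.0522) or DCKO replicate 1 (0.0987). Kcnn2 (SK2) was at 6.89 and 6.99 FPKM in DCKO, against 6.69 and 7.23 FPKM in controls, with a log2 change of -0.00 (95% confidence interval -0.22 to 0.21). Kcnn3 (SK3) was at 4.97 and 4.9993 FPKM in DCKO, against 3.54 and 4.02 FPKM in controls, and was not called (log2 change 0.33, adjusted p = 0.0660). Kcnn4 (IK), best known from red blood cells and immune cells, was at 4.47 and 4.05 FPKM in DCKO, against 2.75 and 1.76 FPKM in controls (log2 change 0.71, SE 0.18, adjusted p = 0.0421). Its scaled counts were only 89.9 and 84.4 in DCKO, against 56.5 and 33.8 in controls. The call was lost on those counts (adjusted p = 0.0563), and without control replicate 2 (0.110), DCKO replicate 1 (0.137) or DCKO replicate 2 (0.0960). The summed level of the 4 genes was 19.1 and 19.5 FPKM in DCKO, against 18.6 and 17.7 FPKM in controls. Of 6 genes for calmodulin and casein kinase 2, which are bound to SK channels, Calm2 fell and 5 were not called. That was 16.7% called, against 27.3% of all tested genes. Calm2 was at 417.6 and 430.1 FPKM in DCKO, against 701.0 and 682.5 FPKM in controls.

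Kcnt1, which encodes the sodium-activated channel Slack, was at 26.6 and 17.8 FPKM in DCKO, against 17.3 and 20.6 FPKM in controls. The groups overlapped, and it was not called (log2 change 0.20, 95% confidence interval -0.33 to 0.72). Its sign turned without DCKO replicate 1 (log2 change -0.08).

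The KChIP genes were all called, 2 lower and 2 higher, while 27.3% of all tested genes were called. KChIPs are calcium-binding proteins of the EF-hand type that bring Kv4 channels to the membrane and shape the A-type current. Kcnip1 was at 7.30 and 5.32 FPKM in DCKO, against 21.4 and 24.0 FPKM in controls, a 3.60-fold lower mean (log2 change -1.71, SE 0.15, limma adjusted p = 0.00396). Kcnip2 was at 20.2 and 32.2 FPKM in DCKO, against 56.05 and 58.8 FPKM in controls (log2 change -1.14, SE 0.21, adjusted p = 0.0222). The 2 DCKO libraries differed more from each other than the controls did for Kcnip2, and DCKO replicate 2, the higher one, also had the higher summed level of bulb interneuron markers. That sum was 122.98 and 193.2 FPKM in DCKO, against 944.7 and 919.2 FPKM in controls. The order of the DCKO libraries varied among the other genes that fell. Kcnj6 was also higher in DCKO replicate 2 (1.86 and 2.58 FPKM). Kcnip1, above, and Kcnj4 (17.999 and 12.8 FPKM) were lower there. Kcnip3, which rose, was higher there. The part of the interneuron markers in the Kcnip2 result was not tested.

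Kcnip3, also known as calsenilin or DREAM, and Kcnip4 were higher. Kcnip3 was at 25.6 and 39.1 FPKM in DCKO, against 17.9996 and 18.3 FPKM in controls (log2 change 0.77, SE 0.20, limma adjusted p = 0.0464). Left out in turn, control replicate 1 (adjusted p = 0.0681) and control replicate 2 (0.0694) each ended the call of Kcnip3. Its log2 change was 1.06 without DCKO replicate 1 and 0.47 without DCKO replicate 2. Kcnip4 (chromosome 5, 48389502 to 49524907, - strand, GRCm38) was at 18.8 and 20.9 FPKM in DCKO, against 9.54 and 8.47 FPKM in controls, a 2.20-fold higher mean and the largest increase of the set (log2 change 1.06, SE 0.09, adjusted p = 0.00396). As shares of the summed KChIP level, Kcnip2 held 28.1% and 33.02% in DCKO, against 53.4% and 53.6% in controls. Kcnip3 held 35.6% and 40.1% in DCKO, against 17.2% and 16.7% in controls. Kcnip4 held 26.2% and 21.4% in DCKO, against 9.09% and 7.73% in controls. The leading KChIP transcript was thus Kcnip3 in both DCKO libraries and Kcnip2 in both controls. The ratio of Kcnip4 to Kcnip1 was 2.58 and 3.92 in DCKO, against 0.447 and 0.352 in controls.

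Among the pore genes of Kv4, the channels that KChIPs bind, Kcnd2 (log2 change -0.67) and Kcnd3 fell. The pore gene Kcnd1 was not called (log2 change 0.02). Kcnip1 and Kcnip2 fell too, while Kcnip3 and Kcnip4 rose. Of 5 tested genes for Kv4 pores and their DPP partners, 4 fell, while 14.3% of all tested genes were lower. Dpp10, a partner protein of Kv4, was at 6.44 and 6.51 FPKM in DCKO, against 25.4 and 23.3 FPKM in controls (log2 change -1.76, limma adjusted p = 0.000893). Dpp6 (log2 change -0.997) and the pore gene Kcnd3 (-0.80) also fell.

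**Figure D3:**
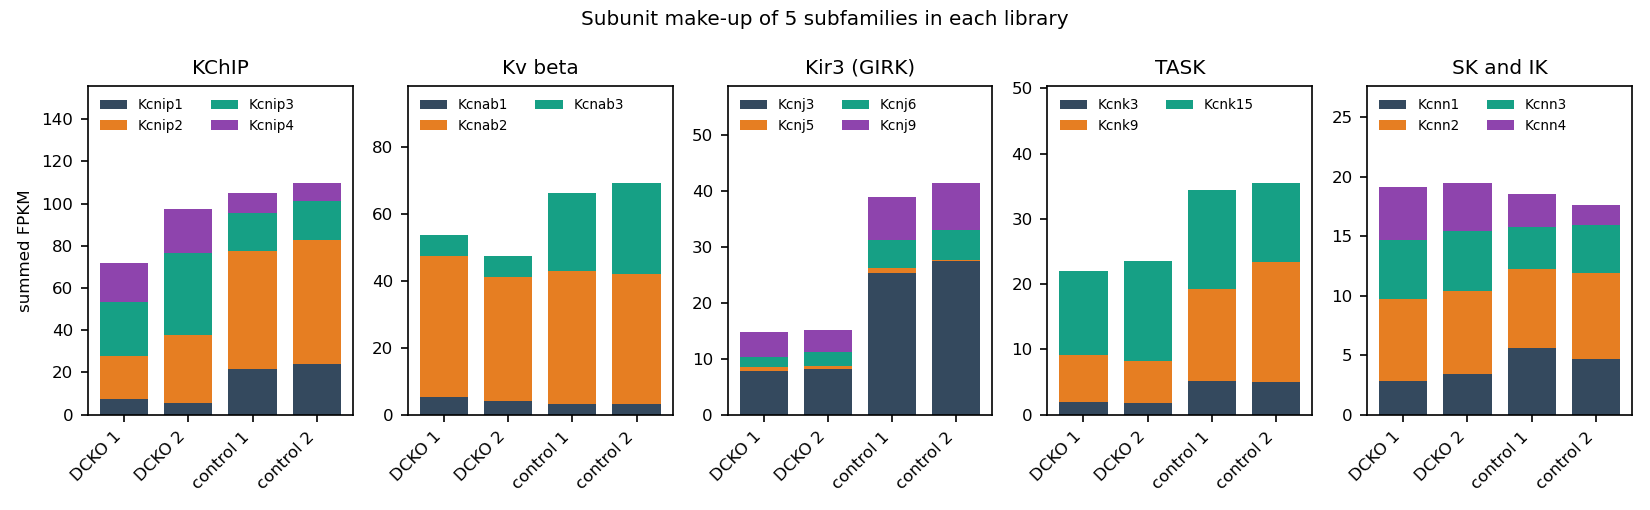
Stacked FPKM of the members of 5 subfamilies in each library, DCKO libraries at the left of each panel and controls at the right. Kcnip3 and Kcnip4 fill more of the KChIP bar in DCKO, the Kcnab3 part of the Kvβ bar is 11.8% and 13.2% in DCKO, against 35.2% and 39.4% in controls, and the SK and IK bars have similar heights in the 4 libraries.

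The Kvβ subunits, which bind the cytoplasmic face of Kv1 channels and modulate their inactivation and transport, moved apart from each other. Kcnab3 (Kvβ3) was at 6.32 and 6.29 FPKM in DCKO, against 23.2 and 27.2 FPKM in controls, a 4.003-fold lower mean (log2 change -1.84, SE 0.10, limma adjusted p = 0.00116). Kcnab2 (Kvβ2), the most abundant of the 3, was at 42.1 and 37.1 FPKM in DCKO, against 39.8 and 38.8 FPKM in controls, with a log2 change of 0.01 (95% confidence interval -0.21 to 0.22). Kcnab1 (Kvβ1) was at 5.22 and 4.15 FPKM in DCKO, against 3.02 and 3.09 FPKM in controls (log2 change 0.48, SE 0.13, adjusted p = 0.0483). The call of Kcnab1 was close to the threshold. It did not hold without control replicate 1 (adjusted p = 0.141), control replicate 2 (0.134) or DCKO replicate 1 (0.102). Kcnab2 was 6.66 and 5.89 times as abundant as Kcnab3 in DCKO, against 1.71 and 1.43 times in controls. Among the 6 Kv1 pore genes, Kcna4 fell (log2 change -0.98), Kcna3 rose (0.56) and 4 were not called. That was 33.3% called, against 27.3% of all tested genes.

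Kcne1l, which encodes the single-span protein Kcne5, was the abundant gene of its family, at 16.7 and 21.9 FPKM in DCKO, against 14.1 and 16.1 FPKM in controls. It was not called (log2 change 0.32, 95% confidence interval -0.05 to 0.70, limma adjusted p = 0.157). The log2 change was 0.51 without DCKO replicate 1 and 0.14 without DCKO replicate 2.

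The filter kept out 16 genes. The tested genes nearest to it were Kcnk5 (mean 1.04 FPKM) and Kcnj13 (1.96 FPKM), and the nearest untested ones were Kcne4 (0.924 FPKM), a regulator of Kv channels, and Kcnk6 (0.901 FPKM), a relative of TWIK-1. Kcnk6 was at 1.12 and 0.988 FPKM in DCKO, against 0.739 and 0.754 FPKM in controls. The β2 subunit gene of BK, Kcnmb2, was at 0.536 and 0.878 FPKM in DCKO, against 1.18 and 0.927 FPKM in controls. Kcnmb3 was listed at 0 in both DCKO libraries, against 1.28 FPKM in control replicate 1 and 0.251 FPKM in control replicate 2. Those control values rest on scaled counts of 10.1 and 1.93. Control replicate 1 also had the most olfactory sensory neuron transcripts, whose part in the Kcnmb3 value was not tested. Conversely, Kcnk7 was listed at 0 in both controls, against 0.566 and 0.257 FPKM in DCKO, on scaled counts of 5.86 and 2.72. Kcnt2, which encodes the sodium-activated Slick channel, was at 0.588 and 0.772 FPKM in DCKO, against 1.06 and 0.841 FPKM in controls. The other 10, Kcne2, Kcne3, Kcnj1, Kcnj5, Kcnj14, Kcnj15, Kcnk4, Kcnk18, Kcnmb1 and Kcnu1, stayed below 1 FPKM in every library.

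Leaving out single libraries affected the increases more than the decreases. Of the 14 genes that fell, 12 kept their call in every alternative in which they were tested, the exceptions being Kcnn1 and Kcnip2. Kcnip2 lost its call only with no filter on low values (adjusted p = 0.0552). Of the 8 that rose, Kcnk2 and Kcnip4 kept theirs. Without control replicate 2, only 2 channel genes were called higher and 13 lower, and in that fit 806 of all tested genes were called higher, against 1747 with all libraries.

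**Figure D4:**
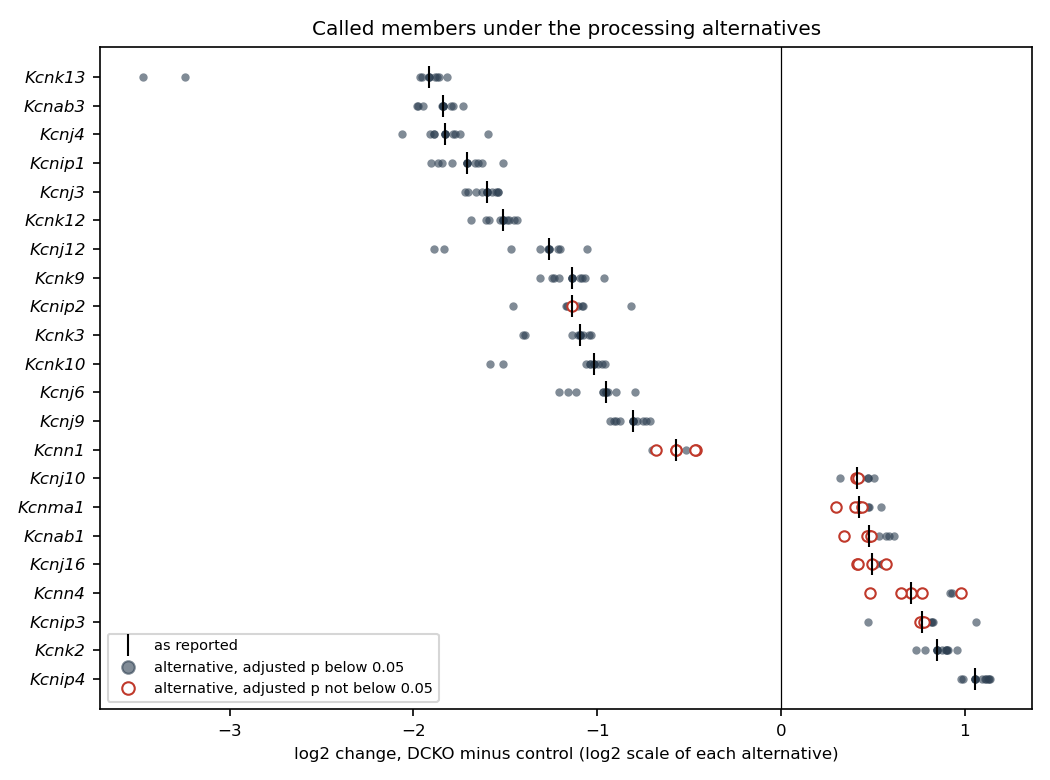
Log2 change of each called channel gene as reported (vertical mark) and under up to 12 processing alternatives, filled points where the limma adjusted p was below 0.05 and open points where it was not. No point crosses 0, and open points lie on Kcnn1, Kcnip2 and 6 of the 8 genes called higher, while Kcnk13 spreads from -3.47 to -1.82 with the pseudocount and the measure used.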

How the data were processed

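Whole olfactory bulb RNA was sequenced from 2 DCKO and 2 control samples. The submitters' processing notes name TopHat, with no version, Cufflinks 2.1.1 and the build GRCm38.p4. The annotation, the strand setting and how shared reads were counted are not known here. The authors deposited FPKM per gene and library. Their columns headed count hold a scaled signal: of the deposited values above 0, 98.5% to 98.8% are within 0.05 of a whole multiple of 1 unit per library. These columns served as an alternative only, and no count model was run on them. Columns were matched to samples by the codes in the sample descriptions.

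The model was limma 3.58.1 (R 4.3.3), applied to log2 values of FPKM plus 1 with a variance trend and no covariate, two-sided, after removing genes whose mean was under 1 FPKM. It was first tested on simulated data. Coordinates and overlaps come from GENCODE M21 (GRCm38), and promoter windows from RefSeq (GRCm38.p6), where 42 of 51 genes matched.

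The channel genes, subfamilies, partner lists and marker lists were chosen with earlier results of these data known. Named were all called channel genes, the most abundant gene of each subfamily with none called, the 10 of highest mean, those nearest the filter, any other tested channel gene, up to 3 called partners per list, Sp8 and Sp9. Also named, chosen after their values were seen, were other partner and untested channel genes, the ratios and the promoters printed. The genes of 1 partner list are not reported here.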

Additional observations from a re-analysis of the deposited data

How the results depend on the processing

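Of the 22 called channel genes none changed sign under any alternative run, and 14 kept their call throughout. With genes filtered at a mean of 5 FPKM, 22 channel genes were tested, against 35, and 8 were called lower, against 14. The other genes of those 14 had means under 5 FPKM and were not tested there, so no tested one lost its call. With no filter 3 channel genes were called higher, against 8. In that fit 1 partner gene was higher, against 3, or 5 after quantile normalization. Leaving out each library in turn gave 13 to 14 channel genes lower and 2 to 7 higher, and 1 to 4 partner genes higher. Over all tested genes it gave 1030 to 1875 lower, against 1926, and 806 to 1384 higher, against 1747. A group left with 1 sample was assumed to vary like the other. The median of the channel genes stayed between -0.08 and 0.05.

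Signs turned only for genes that were not called. Leaving out libraries moved the log2 change of Kcnab2 between -0.0825 and 0.0961 (-0.0102 without control replicate 2), of Kcnj11 between -0.0832 and 0.135 (-0.0105 without control replicate 2), of Kcnk15 between -0.100 and 0.199 (-0.0647 without DCKO replicate 2), of Kcnk5 between -0.0314 and 0.193, of Kcnn2 between -0.0523 and 0.0455 (0.00564 without DCKO replicate 1) and of Kcnt1 between -0.0800 and 0.471. Kcnn2 was at 0.0453 after quantile normalization and at 0.0538 after median centring. Kcnn3 passed the threshold after median centring (limma adjusted p = 0.0474) and on the scaled counts (0.0307). The cause of these changes was not tested.

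With the replicate number as a block, 13 channel genes were lower and 6 higher, with 1418 and 1312 over all genes and 12 and 2 among partner genes. Kcnn1 (limma adjusted p = 0.0634), Kcnab1 (0.0738) and Kcnma1 (0.0570) were not called under the block. Deviations of same-numbered samples correlated at -0.02 across 13434 genes, so the numbers do not show a pairing. The planned count models, edgeR and DESeq2, were not run, since whole reads could not be recovered for all values. Scaled counts below 100 in every library limit the precision for Kcnj13, Kcnk5, Kcnk15 and Kcnn4.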
